A study of Mus musculus with 36 samples.

Results

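A set of 50 genes differed by at most 0.4 (log2) between Ikaros-induced and control B3 cells up to 12 h and was higher in the Ikaros cells at 24 h. They are called the late-only rising genes here. They were selected from the 12762 genes of the expression table by 3 conditions on its log2 values. The mean over all 36 libraries was at least 9.5, the Ikaros minus control difference of the group means was no larger than 0.4 in either direction at 0, 2, 6 and 12 h, and the difference at 24 h was at least 1.2. The mean minimum left 9584 genes, of which 3293 also met the limit up to 12 h. The measured differences at 0, 2, 6, 12 and 24 h therefore chose the genes and are given as a description with no test. The difference at 18 h was not part of the choice, although the 18 h libraries entered the mean over all 36 libraries. It is the comparison tested below. Of the 50 genes, 47 are protein coding in GENCODE M21, Pisd-ps2 and Ppp4r1l-ps are transcribed pseudogenes, and 1700007L15Rik is a noncoding RNA.

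Messenger RNA was sequenced from B3, a mouse pre-B cell line, carrying either a retroviral vector for an HA-tagged Ikaros fused to the ERt2 hormone-binding domain (Ikaros cells) or an ERt2 vector without Ikaros (control cells). Both lines received the hydroxylated tamoxifen 4-OHT at 0.5 uM, which moves the fusion protein into the nucleus, and each was collected at 0, 2, 6, 12, 18 and 24 h with 3 libraries per line and time. The labels list the drug for the 0 h libraries too, while the methods describe 0 h cultures as collected separately without it. Labelled batches 1, 2 and 4 gave the 0 h libraries and batches 1, 3 and 4 the later ones, so the same batch number links both lines. The labels do not say what a batch is. The methods use the word for repeats of the time course, with the 0 h cells obtained separately.

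The system limits what the groups represent: 1 transformed line with Ikaros supplied in excess of its own gene, and a control that differs from it by the vector. Ikzf1, the gene for Ikaros, stood at 20.66 ± 0.0081 in Ikaros cells and 14.46 ± 0.28 in control cells at 18 h (log2, SD, n = 3), and its difference was already 5.19 at 0 h. The study states a target depth and gives read totals per library, which were not used here, and the reads behind each gene's value are unknown because the table holds normalized values only. Of 12 B lineage markers, 11 were in the table, and in Ikaros cells at 18 h 8 of them were called higher, 1 lower (29.0% and 29.2% of all genes). Their summed level at 18 h ran from 19.43 to 19.78 in the control libraries and from 19.90 to 20.05 in the Ikaros libraries. Among markers of other cells, 3 of 10 for T and NK cells, 2 of 10 for myeloid cells and 2 of 9 for erythroid and stromal cells were in the table. Only Lck among these reached the mean minimum, and the 2 myeloid markers went opposite ways at 18 h, with Itgam called higher (4.52) and Lyz2 lower (-2.06). Their summed level was 6.38 to 7.90 in control and 9.86 to 10.03 in Ikaros libraries at that time. The part of any of these markers in the results below was not tested. In bulk samples, more RNA of a gene in each cell and more cells with that gene cannot be told apart. The methods describe a G1 arrest after Ikaros induction that sets in before 18 h. The part of cell cycle state in the late differences was not tested.

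Ikaros is a zinc finger transcription factor of the lymphoid lineage that both represses and activates genes. In pre-B cells it is known for ending the cycling stage that follows pre-B receptor signalling and for preparing the light chain gene rearrangement. The genes of the late set serve in many cell functions, among them chromatin regulation, DNA end joining, amino acid sensing, protein secretion and redox balance.

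Up to 6 h the median difference of the 50 genes stayed between -0.07 (2 h) and 0.00 (6 h), with -0.06 in the 0 h cultures. By 12 h the median had moved to 0.26. At that time the difference was above 0 for 43 of them, and for 14 the 3 Ikaros libraries all lay above the 3 control libraries, which was so for 25.6% of all genes. The median difference then reached 0.90 at 18 h and 1.39 at 24 h, where the lowest was 1.204 and the highest 2.07. The 3243 other genes that were flat to 12 h had medians of -0.03 at 18 h and -0.06 at 24 h.

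**Figure D1:**
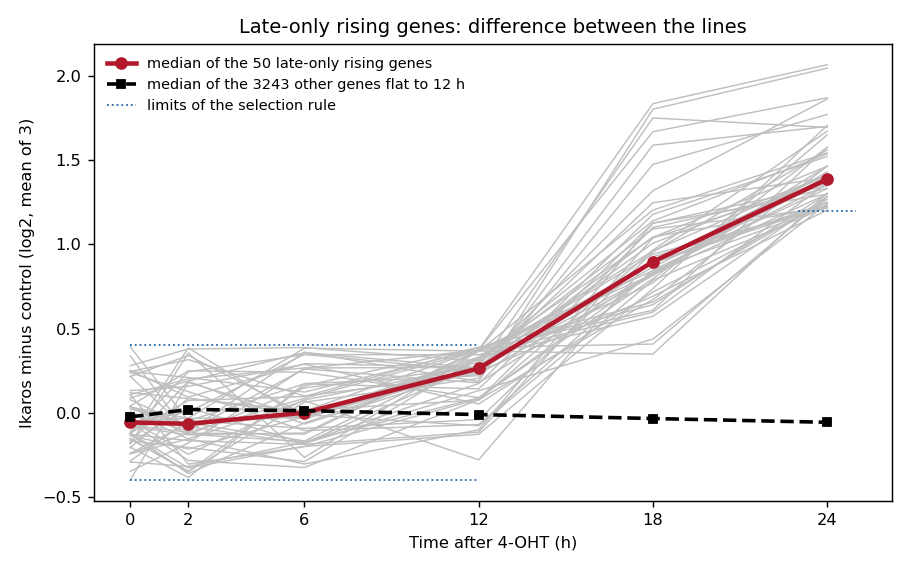
Difference between Ikaros and control cells (log2, means of 3 libraries) against time after 4-OHT in hours, with 1 grey line per late-only rising gene, the red line as their median, the dashed line as the median of the 3243 other genes flat to 12 h and dotted lines as the limits of the selection. The red median passes 0.26 at 12 h, 0.90 at 18 h and 1.39 at 24 h, while the dashed median stays near 0.

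The divergence lay mostly in the Ikaros cells. From 2 h to 24 h their level went up for all 50 genes, by a median of 1.32 on the log2 scale, from 0.54 for Mylpf to 2.43 for Abhd17c. In the control cells the same interval gave a median of -0.14, with 35 genes at or below 0. The largest control falls were those of Rps27 (-0.72), Nfe2l2 (-0.70), Isoc2b (-0.53), Dclre1c (-0.45) and 1700007L15Rik (-0.45). In these 5 genes, as in others with a control fall, part of the change in difference since 2 h came from the control side. At 24 h the batch 4 control library was the lowest for Dclre1c (9.37, others 10.30 and 10.42) and Isoc2b (9.34, others 10.33 and 10.25). It was also the lowest for 1700007L15Rik (10.34, others 10.92 and 10.85). The Rps27 control mean went up and down, at 17.15, 17.78, 17.60, 17.13, 17.75 and 17.06 in time order. Its fall therefore depends on the 2 h level. Nfe2l2 went up by 0.63 in the Ikaros cells, less than it fell in the control cells. Mylpf, with the smallest Ikaros increase, was at -0.41 in the control cells. Only its batch 4 control fell, from 11.97 at 2 h to 10.57 at 24 h. The controls of batches 1 and 3 went from 11.16 to 11.20 and from 11.18 to 11.30. Its 24 h Ikaros libraries were at 12.23, 12.28 and 12.47 in batches 1, 3 and 4. The 24 h difference of Mylpf was thus largest in batch 4, through that low control library. Herpud1 (0.37), Abhd17c (0.34), Mpp1 (0.28), Mr1 (0.24) and Ift122 (0.22) had the largest control increases. The steepest step in the Ikaros cells was from 12 h to 18 h, with a median of 0.76 and an increase in all 50 genes. From 18 h to 24 h the median step was 0.35, and Ipmk (-0.06) was the 1 gene that did not go up further. These changes within a line are descriptions, since the 2 h, 12 h and 24 h values entered the choice of genes.

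**Figure D2:**
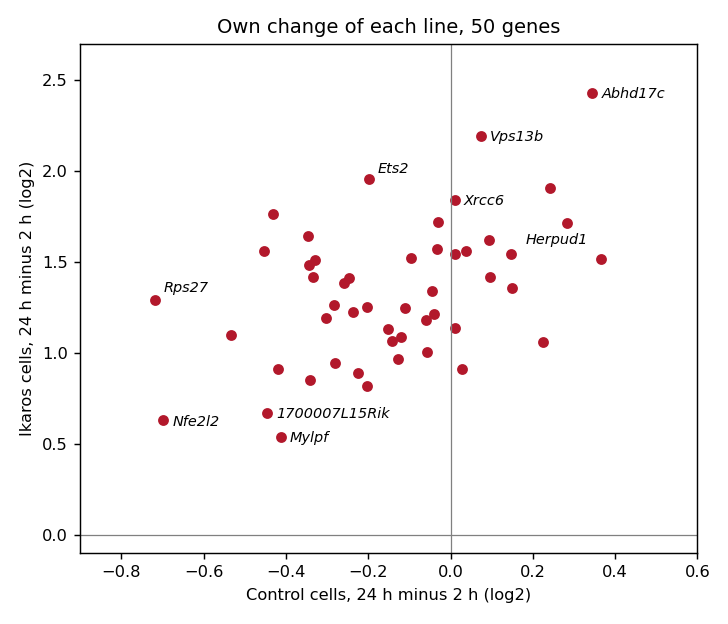
Change from 2 h to 24 h within the Ikaros cells (vertical axis) against the change within the control cells (horizontal axis), both as log2 differences of means of 3 libraries, with 1 point per late-only rising gene. Every point lies above 0 on the Ikaros axis, from 0.54 to 2.43, while the control axis runs from -0.72 to 0.37.

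At 18 h, 48 of the 50 genes were higher in Ikaros cells by limma with an adjusted p under 0.05 over all genes, and none was lower. The 48 include 1700010I14Rik, which met the mean minimum only through its Ikaros libraries. Over all genes 29.0% were called higher at this time, 29.2% lower and 58.2% in either direction, and the higher share was 30.7% among genes at the mean minimum. Among the 3243 other genes at the mean minimum and flat to 12 h the share called higher was 20.0%. The differences of the 50 genes ran from 0.35 to 1.84, which corresponds to 1.27-fold to 3.57-fold with a median of 1.86-fold, and 19 genes had a difference of at least 1. Over all genes the median difference was -0.02. In 49 of 50 genes the 3 Ikaros libraries lay above the 3 control libraries, against 32.1% of all genes, and Isoc2b was the exception. Taken batch by batch, the median difference was 0.89 (batch 1), 0.82 (batch 3) and 1.04 (batch 4), and 49 genes were higher in every batch, against 37.3% of all genes. Without 1 replicate of every group the number called was 44 (without replicate 1), 42 (without replicate 2) and 45 (without replicate 3).

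**Figure D3:**
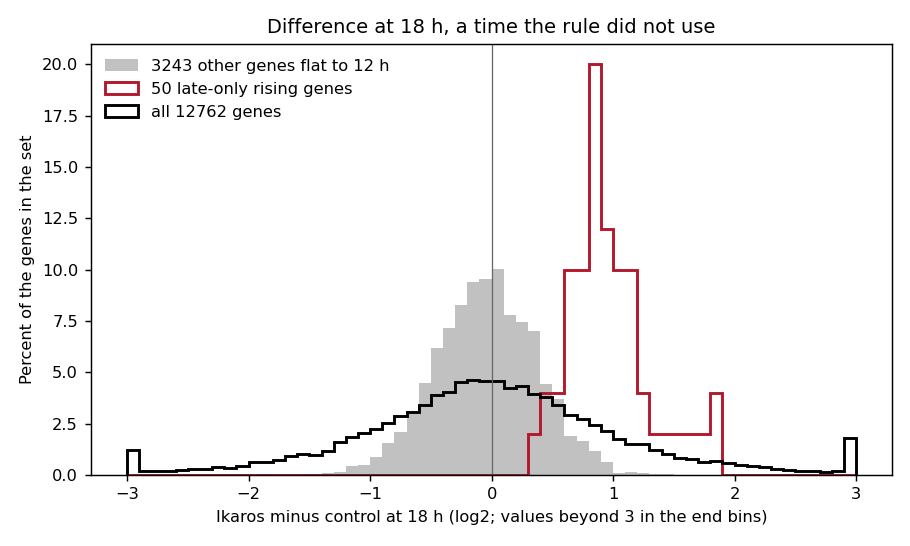
Share of genes (percent of each set) by the Ikaros minus control difference at 18 h (log2, bins of equal width) for the 50 late-only rising genes, the 3243 other genes flat to 12 h and all 12762 genes. The late-only rising genes run from 0.35 to 1.84 with a median of 0.90, and the other flat genes centre on -0.03.

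The control library of batch 4 at 18 h correlated least with its own group over all genes (mean Pearson correlation 0.966). It was the lowest of the 3 control libraries for 27 of the 50 genes and the highest for 12, and its median distance from the mean of the other two was -0.12. Per the methods, both lines were thawed and expanded for each batch and all cultures of a batch were harvested at once, so the 18 h and 24 h cultures of a batch share that history. The 18 h values are thus separate libraries but not separate expansions of the cells.

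The genes differed in how much of their 24 h difference was in place at 18 h. The median share was 66.2%, from 26.7% for Mylpf to 103% for Ipmk. For 17 genes it was at least 75%, among them Abhd17c, Ift122, Tram1, Bcl7a, Klhl42 and Ets2, and for 10 it was under 50%, among them Rps27, Dclre1c, Stk3 and Trip4. The share also depends on the control cells, whose change from 18 h to 24 h had a median of -0.09 over the 50 genes. That change was -0.70 for Rps27, -0.42 for Dclre1c and -0.77 for Mylpf. The batch 4 control library went from 10.32 to 9.37 for Dclre1c and from 12.01 to 10.57 for Mylpf. The other control libraries fell less for both genes. In the Ikaros cells Rps27 went up by 1.49 from 12 h to 18 h and by 0.27 from 18 h to 24 h. Because the genes were picked for a large 24 h difference, the share is a description of these genes only.

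The limits of the selection cut through a continuum. At the 24 h limit the members Rabep2 (1.204), Ift122 (1.22) and Mpp1 (1.22) lay just inside, and Stx16, Elmod2 and Ogfr, each at 1.19, just outside. Ezh2 (0.40), Hipk3 (0.39) and Isoc2b (0.39) were the members with the largest difference at any of the earlier times, while Tcn2, Dnajc15 and Hdac5 missed the limit at 0.41. The lowest mean levels among the members were those of 1700010I14Rik (9.61), Ift122 (9.81) and Slc17a5 (10.16), and Chic1 (9.16), 4933407K13Rik (9.03) and Zfp760 (8.94) met every condition except this one. The control cells alone averaged at least 9.5 for 49 of the 50 genes. The exception was 1700010I14Rik, with control means from 9.12 at 24 h to 9.65 at 18 h. It met the mean minimum only through the Ikaros libraries, and it is among the genes called higher at 18 h. A further 939 genes met all conditions but the early limit and 11 all but the mean minimum.

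Promoter sequence was examined as a description of the genes, whose shared timing was set by the selection. RefSeq windows of 300 bases (250 before and 50 after the annotated start, GRCm38.p6) were matched for 35 of the 50 genes. Genes with no matched window included Bcl7a, Gipc1, Gltscr2, Ift122, Klhl42, Nipbl, Nnt, Pisd-ps2, Ppp4r1l-ps, Stk3, Syap1, Tram1, Vps13b and Zfp369. The Ikaros core TGGGAA, read on both strands, was in 7 of the 35 windows (20.0%), in 28.3% of the windows of all 27025 genes and in 26.0% of those of the 9203 genes of the table with a window. Those 7 genes were 1700007L15Rik, Aldh6a1, Cmas, H2-Q4, Jarid2, Mr1 and Prkra, and in none of the 35 windows did a core match overlap a match to the Ets word GGAAGT. Matches in 80-base stretches upstream of the start are shown for the 5 protein-coding genes whose stretch holds no exon annotated in GENCODE M21, read 5′ to 3′ on the strand of the gene with the match in capitals.

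The stretches were those of Cmas (chr6:142756436-142756515, plus strand), Jarid2 (chr13:44730690-44730769, plus strand), Mr1 (chr1:155146935-155147014, minus strand), Aldh6a1 (chr12:84451065-84451144, minus strand) and Prkra (chr2:76648155-76648234, minus strand). Those of Aldh6a1 and Prkra each hold a further match, left in lower case, and that of Jarid2 lies between annotated exons inside the GENCODE span of the gene.
Cmas: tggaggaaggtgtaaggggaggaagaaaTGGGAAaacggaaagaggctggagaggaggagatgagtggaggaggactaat
Jarid2: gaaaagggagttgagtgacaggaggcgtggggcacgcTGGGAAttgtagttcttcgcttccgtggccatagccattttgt
Mr1: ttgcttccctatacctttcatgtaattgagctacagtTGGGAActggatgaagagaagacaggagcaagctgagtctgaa
Aldh6a1: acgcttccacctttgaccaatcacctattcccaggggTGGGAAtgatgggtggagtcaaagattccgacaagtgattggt
Prkra: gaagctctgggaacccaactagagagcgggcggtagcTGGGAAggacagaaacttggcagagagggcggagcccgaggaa

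The shares of the other words searched on both strands are given beside those of all genes and of table genes, with no test. The NF-Y word CCAAT was in 42.9% of the 35 windows (41.1% of all genes and 43.7% of table genes). The GC box GGGCGG was in 54.3% (38.2% and 68.2%), the Ets word GGAAGT in 17.1% (26.5% and 33.5%) and the antioxidant element TGANNNNGC in 45.7% (45.0% and 47.8%). The AP-1 word TGANTCA was in 2.86% (8.97% and 5.56%), the forkhead word GTAAACA in 0 of 35 windows (4.05% and 3.01%), and the cAMP element TGACGTCA in 5.71% (2.03% and 3.79%), in Flcn and Gpbp1. The E-box CACGTG was found in 1 window, that of Fnip1, against 8.09% of all genes and 11.9% of table genes. It is shown with the cAMP element of Gpbp1 (chr13:111490212-111490291, minus strand); the Fnip1 stretch is at chr11:54438067-54438146 on the plus strand, and both are upstream of the start with the match in capitals.
Fnip1: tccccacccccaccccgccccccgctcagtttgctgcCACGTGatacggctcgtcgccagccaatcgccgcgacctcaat
Gpbp1: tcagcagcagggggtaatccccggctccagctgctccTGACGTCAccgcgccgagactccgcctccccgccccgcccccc

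The largest 18 h differences belonged to genes of several unrelated roles. Klhl42 (chr6:147091379-147112778, plus strand, GRCm38), which encodes a substrate adaptor of a cullin ubiquitin ligase, was at 11.24, 11.01 and 11.26 in the control libraries of batches 1, 3 and 4 at 18 h and at 13.09, 12.77 and 13.16 in the Ikaros libraries. All 3 Ikaros values were above all 3 control values. The difference was 1.84 (SE 0.18, adjusted p = 1.29e-09, limma), and it was 2.07 at 24 h. Ets2 (chr16:95702075-95721051, plus strand), an Ets family transcription factor, read 10.50, 10.21 and 10.01 in control and 12.15, 11.87 and 12.12 in Ikaros libraries at 18 h. The lines were again fully apart, with a difference of 1.80 (SE 0.17, adjusted p = 1.39e-09, limma).

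Ipmk, a kinase that phosphorylates inositol phosphates and is found in the nucleus, was at 13.24, 12.99 and 12.57 in control and at 14.67, 14.61 and 14.78 in Ikaros libraries at 18 h. Its control values spread more widely than its Ikaros values, and the lowest control value was that of batch 4. The difference was 1.75 (SE 0.20, adjusted p = 3.78e-08, limma) and stood at 1.70 at 24 h. Abhd17c, an enzyme that removes palmitate from proteins, was higher in Ikaros cells by 1.59 (SE 0.20, adjusted p = 1.77e-07, limma) at 18 h. Vps13b, a lipid transfer protein of the Golgi, was higher by 1.48 (SE 0.14, adjusted p = 7.82e-10, limma). Of 39 other genes on a list of endosome and vesicle traffic 14 were called higher and 4 lower (29.0% and 29.2% of all genes). The median of the 39 was 0.22. Vps13b lies 192.2 kb from Stk3 on chromosome 15, and these were the closest of the 50 genes to each other. The pairs Rabep2 and Mylpf (759.6 kb, chromosome 7) and Nfe2l2 and Prkra (925.3 kb, chromosome 2) were the other neighbours within 1 Mb.

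**Figure D4:**
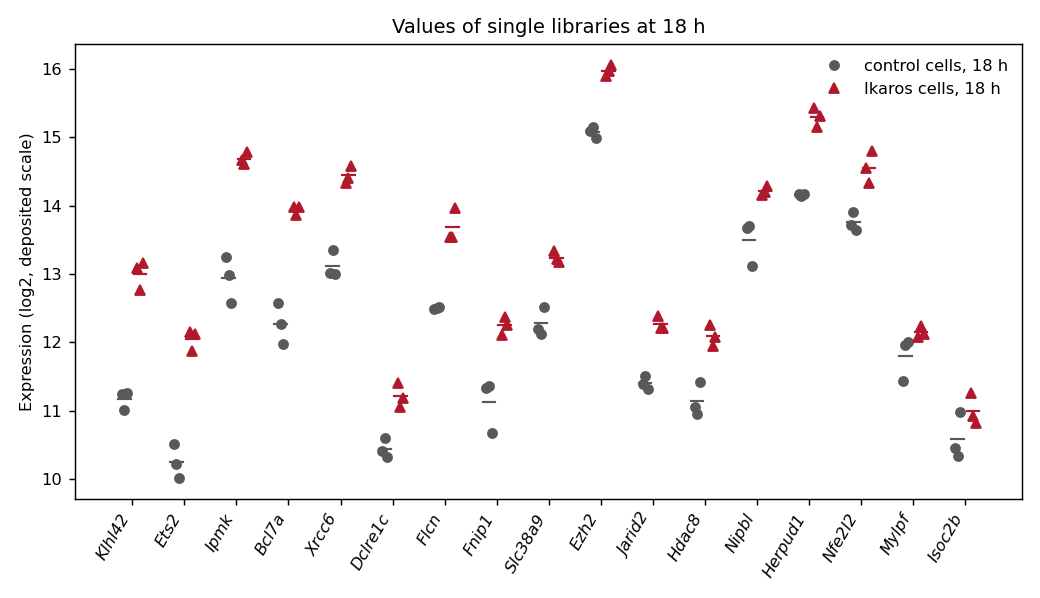
Expression (log2, deposited scale) of 17 late-only rising genes in each of the 6 libraries at 18 h, with circles for control cells, triangles for Ikaros cells and bars for the means of 3. The groups are apart in every gene plotted except Isoc2b, where 1 control library (10.98) lies above 2 Ikaros libraries, and the gap is narrow in Mylpf, whose highest control value was 12.01 and lowest Ikaros value 12.08.

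Bcl7a, a subunit of the BAF remodelling complex, read 12.57, 12.27 and 11.97 in control and 13.98, 13.86 and 13.98 in Ikaros libraries at 18 h. The separation of the lines was 1.67 (SE 0.12, adjusted p = 1.04e-11, limma). Of 17 other genes of that complex, 12 were called higher and 3 lower (29.0% and 29.2% over all genes, here and for the lists below). Their median difference was 0.51, and Smarca4, the ATPase of the complex, was at 1.34. This list of partners, and those of Polycomb repressive complex 2, cohesin, V(D)J recombination, amino acid sensing, sialic acid, ER translocation and degradation, intraflagellar transport, redox defence and the Hippo cascade below, were written once the 50 genes were known.

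Ezh2, the methyltransferase of Polycomb repressive complex 2, was at 15.09, 15.15 and 14.99 in control and 15.90, 15.97 and 16.06 in Ikaros libraries at 18 h. No value overlapped, and the difference was 0.90 (SE 0.08, adjusted p = 6.59e-10, limma). Jarid2, which helps to bring this complex to its targets, differed by 0.87 (SE 0.12, adjusted p = 3.85e-07, limma). Of the 9 other genes of the complex and its cofactors, limma called none higher (0 at an unadjusted p under 0.05) and 4 lower, with a median of -0.20 over the 9. The lower ones were Rbbp7 (-0.77), Aebp2 (-0.73), Eed (-0.65) and Ezh1 (-0.52). Suz12, a core subunit, was at 0.17 without a call. Ezh2 was also on a general list of chromatin regulators, of which 24 of the 37 other genes were called higher and 5 lower, with a median of 0.75.

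Nipbl, the loader of cohesin onto DNA, was at 13.68, 13.70 and 13.11 in control and 14.16, 14.19 and 14.29 in Ikaros libraries at 18 h. The batch 4 control was again low, and the difference was 0.72 (SE 0.12, adjusted p = 9.92e-06, limma). Hdac8, the deacetylase that recycles the cohesin subunit Smc3, was higher in Ikaros cells by 0.96 (SE 0.16, adjusted p = 1.18e-05, limma). Mau2, the partner of Nipbl in the loader, was also called higher (1.00). Of the 12 other cohesin genes examined, 2 were called higher, 1 lower and 9 were not called, with a median of 0.06, and Smc1a (0.04), Smc3 (-0.15) and Stag2 (0.15) were among the uncalled.

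Xrcc6 and Dclre1c encode Ku70 and Artemis, which bind and trim the broken ends in V(D)J recombination. Xrcc6 (chr15:81987835-82040085, plus strand) was at 13.01, 13.35 and 13.00 in control and 14.34, 14.41 and 14.58 in Ikaros libraries at 18 h. The gap between the groups was wide, with a difference of 1.32 (SE 0.14, adjusted p = 8.86e-09, limma) and of 1.86 at 24 h. Dclre1c read 10.40, 10.60 and 10.32 in control and 11.41, 11.05 and 11.19 in Ikaros libraries at 18 h. Its difference of 0.77 (SE 0.25, adjusted p = 0.00905, limma) was 0.65 with adjusted p = 0.148 when replicate 1 of every group was left out. Among 12 other genes of the process, 5 were called higher and 2 lower, with a median of 0.40. The recombinase genes Rag1 (5.28) and Rag2 (2.89) and the ligase Lig4 (3.76) were higher, while Xrcc5 (-0.78), which encodes the Ku80 partner of Ku70, and Prkdc (-0.57), the kinase of the same complex, were lower.

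Flcn, Fnip1 and Slc38a9 act in lysosomal amino acid sensing, in which folliculin and its partner Fnip1 act on the Rag GTPases and Slc38a9 reports arginine. Flcn was at 12.49, 12.50 and 12.52 in control and 13.54, 13.54 and 13.97 in Ikaros libraries at 18 h. The control values were nearly identical, and the difference was 1.18 (SE 0.13, adjusted p = 2.25e-08, limma). Fnip1, which is required for B cell development in mice, read 11.32, 11.36 and 10.68 in control and 12.11, 12.37 and 12.26 in Ikaros libraries. Its difference was 1.13 (SE 0.23, adjusted p = 0.000152, limma). Slc38a9 was higher in Ikaros cells by 0.96 (SE 0.11, adjusted p = 5.04e-08, limma). Of 25 other genes of this pathway 7 were called higher and 8 lower (29.0% and 29.2% of all genes). The median of the 25 was 0.05. Nprl2, a subunit of the GATOR complex that restrains the Rag GTPases, was among the higher (1.26), and Fnip2, the paralog of Fnip1, among the lower (-3.54), as was Rptor (-0.71).

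Among the sugar-handling genes, Cmas, which activates sialic acid in the nucleus, was higher by 0.97 (SE 0.22, adjusted p = 0.000483, limma). Slc17a5, the transporter that lets sialic acid out of the lysosome, was higher by 0.89 (SE 0.14, adjusted p = 3.56e-06, limma). Of 16 other genes of sialic acid synthesis and transfer, 4 were called higher and 6 lower, with a median of -0.22. Gne (-0.86) and Nans (-0.58), which act before Cmas in the synthesis, were both lower.

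**Figure D5:**
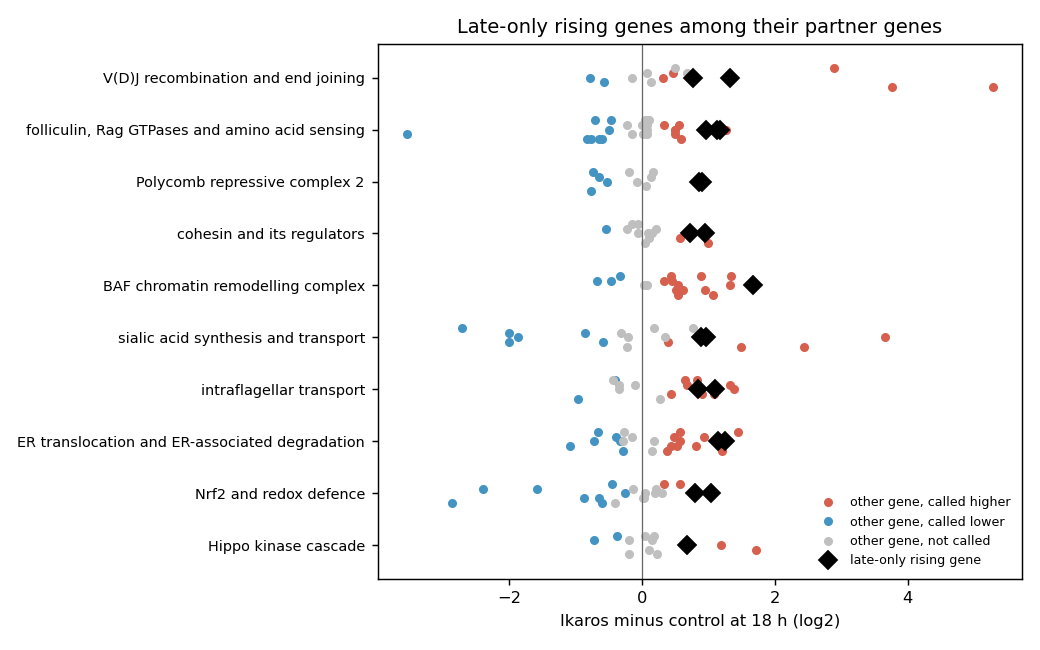
Ikaros minus control difference at 18 h (log2, horizontal axis) of the late-only rising genes, as black diamonds, and of the other genes in 10 lists of complexes and pathways, as circles coloured by their call at adjusted p under 0.05. In the Polycomb repressive complex 2 row none of the circles is called higher, and in the BAF row 12 of 17 are, beside 29.0% of all genes.

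In the secretory pathway, Tram1, a component of the protein translocation channel, was higher by 1.25 (SE 0.13, adjusted p = 4.96e-09, limma). Herpud1, a membrane protein of ER-associated degradation, was at 14.16, 14.14 and 14.17 in control and 15.43, 15.16 and 15.32 in Ikaros libraries at 18 h. Every Ikaros library was above every control library, and the difference was 1.14 (SE 0.13, adjusted p = 4.67e-08, limma). Of 21 other genes of translocation and degradation 10 were called higher and 6 lower, with a median of 0.18. The higher ones included Syvn1 (1.21), Edem3 (1.44) and Derl1 (0.94) of the degradation branch, and the lower ones the chaperone Hspa5 (-0.72) and the translocon-associated subunits Ssr1 (-0.66), Ssr2 (-0.39) and Ssr4 (-1.08).

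Ift122 and Ift172, subunits of the particles that carry cargo along cilia, were higher in Ikaros cells at 18 h. Their differences were 1.09 (SE 0.17, adjusted p = 2.79e-06, limma) and 0.85 (SE 0.13, adjusted p = 3.91e-06, limma). Of 16 other intraflagellar transport genes 9 were called higher and 2 lower (29.0% and 29.2% of all genes). The median of the 16 was 0.54. The early differences of Ift122 were all above 0, at 0.28, 0.38, 0.39 and 0.31 at 0, 2, 6 and 12 h. Its control library of batch 4 at 18 h (9.03) lay below the other two (9.80 and 9.70).

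Nfe2l2 encodes Nrf2, the main transcription factor of the antioxidant response. It was at 13.72, 13.91 and 13.65 in control and 14.55, 14.33 and 14.79 in Ikaros libraries at 18 h. The groups did not overlap, and the difference was 0.80 (SE 0.14, adjusted p = 1.59e-05, limma), growing to 1.58 at 24 h while the control mean went down. Nnt, the mitochondrial enzyme that makes NADPH from NADH, was higher at 18 h by 1.04 (SE 0.09, adjusted p = 4.19e-10, limma). Of 18 other genes of this group, Cat (0.57) and Sod1 (0.34) were the 2 called higher, and 8 were called lower, with a median of -0.20. The lower ones included Nqo1 (-2.39), Slc7a11 (-2.86) and Gclm (-0.87), textbook targets of Nrf2.

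Stk3, a kinase of the Hippo cascade, was higher in Ikaros cells by 0.67 (SE 0.11, adjusted p = 5.60e-06, limma). Its paralog Stk4 was at 1.72 with a call. Of the 11 other genes of that cascade 2 were called higher, 2 lower and 7 were not called, with a median of 0.11. Among the surface genes, Mr1 encodes an MHC class I-like molecule that presents vitamin B derivatives. It was higher in Ikaros cells by 1.204 (SE 0.23, adjusted p = 5.30e-05, limma). H2-Q4, a nonclassical class I gene, was higher by 0.82 (SE 0.14, adjusted p = 1.67e-05, limma). However, its sequence is close to that of other class I genes, so reads of these copies can be shared among them.

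Gipc1, a PDZ-domain adaptor for membrane receptors, had the smallest SE of the 50 genes, with a difference of 1.04 (SE 0.08, adjusted p = 6.62e-12, limma). Hipk3, a nuclear kinase, was higher in Ikaros cells by 1.13 (SE 0.19, adjusted p = 1.73e-05, limma). Gpbp1, a binder of GC-rich promoters, was higher by 1.01 (SE 0.11, adjusted p = 2.34e-08, limma). Trip4, a subunit of a transcriptional coactivator, had a difference of 0.60 at 18 h and of 1.37 at 24 h. The RNA-handling genes Cpsf2 (0.83), Dhx57 (0.84) and Prkra (0.79), the nucleolar gene Gltscr2 (0.89), the membrane scaffold Mpp1 (0.94), the calcium-binding Mctp1 (1.04), the receptor Mrgpre (0.93), the endosomal Rabep2 (0.69), the valine-degrading enzyme Aldh6a1 (0.82), the zinc finger gene Zfp369 (0.83) and Syap1 (0.64) were all called higher at 18 h as well. Without replicate 2 of every group the difference was 0.76 for Zfp369 and 0.67 for Syap1, with adjusted p of 0.0609 and 0.0667 by limma.

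The smallest 18 h differences were those of Mylpf, Isoc2b, Pisd-ps2, 2810474O19Rik and Trip4. Mylpf, a myosin light chain known from fast skeletal muscle, was at 11.43, 11.95 and 12.01 in control and 12.08, 12.24 and 12.12 in Ikaros libraries. The groups were separated by less than the spread among the controls, and the difference of 0.35 (SE 0.25, adjusted p = 0.228, limma) was not called. Isoc2b read 10.45, 10.33 and 10.98 in control and 11.26, 10.92 and 10.82 in Ikaros libraries. The groups overlapped, with 0.41 (SE 0.31, adjusted p = 0.258, limma), and without replicate 3, the batch 4 libraries, the difference was 0.70 with adjusted p = 0.00463. Pisd-ps2 (0.44, adjusted p = 0.0107, limma) and 2810474O19Rik (0.57, adjusted p = 0.0064, limma) were called, but without replicate 3 they were at 0.28 (adjusted p = 0.196) and 0.44 (adjusted p = 0.061).

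Rps27, a ribosomal protein gene, read 17.43, 17.71 and 18.12 in control and 18.20, 18.49 and 18.79 in Ikaros libraries at 18 h. Both lines spread over more than the gap between them, and within each batch the Ikaros value was the higher. The difference of 0.74 (SE 0.30, adjusted p = 0.0371, limma) lost its call when any 1 replicate was left out, with adjusted p of 0.0790, 0.142 and 0.0863. At 24 h it was at 17.17, 17.14 and 16.86 in control and at 18.44, 19.14 and 18.72 in Ikaros libraries. Ribosomal protein genes have many processed copies in the genome, so reads assigned to it are uncertain, as are those of the pseudogenes Pisd-ps2 and Ppp4r1l-ps. The noncoding 1700007L15Rik was higher in Ikaros cells by 0.82 (adjusted p = 0.00427, limma) and 1700010I14Rik by 0.61 (adjusted p = 0.00777, limma). The first was at adjusted p = 0.0540 without replicate 2 and 0.0588 without replicate 3, the second at 0.138 without replicate 1, and Ppp4r1l-ps (0.66) at 0.0597 without replicate 2.

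Among the 50 genes, 8 overlap a coding gene on the opposite strand that is itself in the table. The libraries marked strand, but the strand setting of the counting is not given in the sources used here, so the reads of such a pair cannot be told apart with certainty. The partner moved the same way for Xrcc6 with Desi1 (2.18), Dhx57 with Morn2 (0.69), Trip4 with Pclaf (0.55) and Rabep2 with Atp2a1 (0.94), all called higher at 18 h. It moved the opposite way for Dclre1c with Suv39h2 (-1.15), Mpp1 with Dkc1 (-2.17) and Aldh6a1 with Bbof1 (-1.08), all called lower, and Cox6c beside Vps13b was at -0.41 without a call. The median GC content of the 50 genes' transcripts was 48.4%, against 49.6% over all genes, and their median length 3380 bases against 3071. The genes at the mean minimum and flat to 12 h, from which they were drawn, had medians of 49.1% and 3385.5 bases.

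The mirror selection, genes flat to 12 h and lower by at least 1.2 at 24 h, held 69 genes. Of these 59 were called lower at 18 h, and 29.2% of all genes were. Their median difference at 18 h was -0.83 and at 24 h -1.40, with a median share of 60.8% of the 24 h difference in place at 18 h. The transcripts of the falling genes had a median length of 2289 bases and a median GC content of 50.6%. Whether the rising and falling genes differ in timing was not tested.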

How the data were processed

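Messenger RNA sequencing of 36 libraries (12 groups of 3) was analysed. The authors trimmed the reads, aligned them to mm10 with TopHat2 keeping unique best hits, counted them per gene with HTSeq, normalized the counts for GC content and length with cqn, removed the library preparation effect with ComBat, and deposited log2 values shifted so that the lowest was 1. The log base follows from cqn and is not written in the table. Tool versions and the strand setting are not given in the sources used here. The study gives a target depth and read totals per library, which were not used here, and a batch adjustment before deposit can make replicates look closer than they were.

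The values were fitted with limma 3.58.1 (R 4.3.3) on 12 group means, with no further normalization, filter or pseudocount; the Ikaros minus control contrast at 18 h was tested two-sided and p-values were Benjamini-Hochberg adjusted over 12762 genes, with a threshold of 0.05. The step was tested on simulated data. P-values measure the spread between cultures of 1 line. The members and lists were chosen with earlier results of these data known. Named members were those with the largest 24 h difference, the largest and smallest 18 h difference, the highest level, the largest control changes, those at each limit and those on a gene list; the others were named by textbook function after their values were seen, and 1 member is not reported by name here. Gene positions are from GENCODE M21 and promoter windows from RefSeq (GRCm38.p6). Lines share batch numbers in the labels. Deviations from the group means correlated by -0.06 to 0.51 over 18 same-batch pairs (median 0.13).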

Additional observations from a re-analysis of the deposited data

How the results depend on the processing

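The number of genes meeting the selection moved with its limits. It was 17 with an early limit of 0.3 and 84 with 0.5, and 96 with a 24 h minimum of 1.0 and 16 with 1.5. Without replicate 1, 2 or 3 of every group the selection held from 32 to 52 genes, and only 8 of the 50 met it without each replicate in turn. It held 61 genes with no mean minimum and 47 after quantile normalization.

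The number of members called higher at 18 h was 48 with a replicate block for the labelled batch. It was also 48 after quantile normalization, with a trended robust variance, with a filter on low values and with the 18 h libraries alone. It was 48 again with a GC and length trend removed, a fit chosen after seeing the data. The block changed no member's call in the full fit and gave 7831 genes called against 7423 without it. With the 18 h libraries alone and the block, also chosen after seeing the data, 46 members were called, and Pisd-ps2 and 2810474O19Rik were not. Leaving out a replicate gave 42 to 45 members, a median member difference of 0.84 to 0.93, and 5432 to 7482 called genes, of which 2706 to 3763 higher and 2726 to 3719 lower. Over 10 other fits, 483 of 500 member values kept direction and call, 16 lost the call, 1 gained it and 0 reversed. The cause was not tested. The table holds no counts, so no counting floor was computed.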
